A study of Homo sapiens with 12 samples.

Results

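The laminin and nidogen genes described here encode both nidogens and 8 laminin chains. They were LAMA1, LAMA2, LAMA4 and LAMA5 (alpha chains), LAMB1 and LAMB2 (beta chains), LAMC1 and LAMC3 (gamma chains), and NID1 and NID2. They were chosen by symbol, as 10 of the 58721 genes in the count table, and all 10 passed the filter on low counts. RNA-seq was performed in 2 established Ewing sarcoma cell lines, EW8 and TC71, tumor cells driven by the EWS-FLI1 fusion. Both lines carried a Tet-On 3G transactivator and a lentiviral cassette from which c-Jun and c-Fos, the partners of the classic AP-1 dimer, are expressed together upon addition of doxycycline. The 4 groups were EW8 and TC71 cells treated with vehicle (DMSO) and EW8 and TC71 cells treated with doxycycline at 2000 ng/ml, all for 72 h, with 3 libraries in each. The vehicle libraries are labelled wild type, although the treatment notes put the inducible cassette in all of the cells. Doxycycline-treated cells without the transgenes were not analysed here, so the effects of doxycycline and of c-Jun and c-Fos cannot be told apart. The labels do not say that replicates were separate cultures, so p-values measure the spread between these libraries, which may be technical. A bulk library also cannot tell fewer expressing cells from less RNA per cell.

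Laminins are the large trimeric glycoproteins of the basement membrane, the sheet of matrix that lies under epithelia and around muscle, fat, nerve and vessels. Each trimer joins an alpha, a beta and a gamma chain in a coiled coil inside the cell before it is secreted, and the alpha chain carries the globular end that integrins and dystroglycan bind. Secreted trimers polymerise on the cell surface, and the nidogens, a pair of small linker glycoproteins that dock on the gamma-1 chain, tie the laminin sheet to the collagen IV network and to perlecan.

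Libraries held 42860665 to 60853649 counts. JUN rose from a mean of 21.58 to 473.4 CPM (counts scaled to a common library size, with TMM factors) in EW8 and from 20.74 to 755.2 CPM in TC71, and FOS rose from 36.74 to 1077 CPM and from 11.67 to 1579 CPM, with transgene and endogenous reads summed. All 7 Ewing sarcoma markers examined, CD99 and NKX2-2 among them, were at 1 CPM or more in all 4 groups. With doxycycline 5 of the 7 were lower and 1 was higher in EW8 at an adjusted p under 0.05 (median log2 fold change -0.70, with LIPI at -1.40 past the fold limit), and 4 were lower and 2 higher in TC71 (median -0.30). Markers of other cell types also moved with doxycycline. The 6 fibroblast markers summed to 31.9 to 35.7 CPM with vehicle and 54.4 to 60.3 CPM with doxycycline in EW8, and to 35.9 to 50.8 and 119 to 130 CPM in TC71. COL1A1 was the largest part of that sum in all 4 groups. The rise in EW8 was mainly FAP (2.331 to 21.16 CPM, log2 fold change 3.19), with COL1A1 at 28.63 and 32.25 CPM. In TC71 it was mainly COL1A1 (26.05 to 92.73 CPM, 1.83) and then FAP (3.12 to 24.85 CPM, 2.99). LUM was called lower in both lines (-2.36 and -1.66), DCN fell in both (-0.93 in EW8, -1.73 in TC71), and the list median was -0.07 in EW8 and 0.98 in TC71. The 4 endothelial markers summed to 7.36 to 8.57 and 44.3 to 50.4 CPM in EW8, and in TC71 they were all at the floor with vehicle and reached 3.8 to 4.65 CPM with doxycycline, nearly all of it PECAM1. The floor was set at 6 counts per library, which is 3 read pairs because both mates were counted. The 4 epithelial markers summed to 9.56 to 10.2 and 50.7 to 54.8 CPM in EW8 and to 176 to 215 and 227 to 241 CPM in TC71, with CDH1 at the floor in both TC71 groups. In EW8 KRT8 (4.981 to 31.81 CPM, log2 fold change 2.67) and KRT18 (4.686 to 20.69 CPM, 2.15) were called higher, and EPCAM was not. KRT18 made up most of the TC71 sum (193.6 and 218 CPM), and neither it nor KRT8 passed an adjusted p of 0.05 there. EPCAM was called higher in TC71 (0.7062 to 11.92 CPM, 4.05). Among 4 leukocyte markers, PTPRC had a mean of 65.82 CPM with vehicle in EW8 and lay at the floor in TC71, and SOX10, a Schwann cell marker, was at the floor in all 4 groups. The part of other cell types in the results below was not tested. TC71 vehicle replicate 1 stood apart from its group, with a chi-square per gene of 58.9 and 56.1 against the other replicates, while the other 10 replicate pairs lay between 5.24 and 10.2.

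Promoter sequences of 8 of the 10 genes were found in the RefSeq table for GRCh38.p14, from 250 bases before to 50 bases after the start site, LAMA1 and LAMC3 being the genes without an entry. The 4 shown here belong to LAMC1 and NID2, which rose in both lines, to NID1, whose response differed between the lines, and to LAMA4, which moved in opposite directions in the lines. Capitals mark the GC box (GGGCGG, on either strand).
LAMC1, chr1:183023170-183023469, plus strand: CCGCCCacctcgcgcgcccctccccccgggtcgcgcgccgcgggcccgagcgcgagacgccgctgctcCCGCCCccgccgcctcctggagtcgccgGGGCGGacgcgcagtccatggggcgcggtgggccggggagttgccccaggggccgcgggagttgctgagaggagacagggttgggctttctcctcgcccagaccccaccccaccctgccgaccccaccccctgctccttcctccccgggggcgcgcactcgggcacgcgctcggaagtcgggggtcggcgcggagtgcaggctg
NID2, chr14:52069010-52069309, minus strand: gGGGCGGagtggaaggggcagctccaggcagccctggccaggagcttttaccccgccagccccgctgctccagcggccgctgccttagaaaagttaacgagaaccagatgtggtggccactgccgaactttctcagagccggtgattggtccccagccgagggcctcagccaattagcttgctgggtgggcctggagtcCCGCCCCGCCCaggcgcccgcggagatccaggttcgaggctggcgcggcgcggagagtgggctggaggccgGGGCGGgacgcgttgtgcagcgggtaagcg
NID1, chr1:236065041-236065340, minus strand: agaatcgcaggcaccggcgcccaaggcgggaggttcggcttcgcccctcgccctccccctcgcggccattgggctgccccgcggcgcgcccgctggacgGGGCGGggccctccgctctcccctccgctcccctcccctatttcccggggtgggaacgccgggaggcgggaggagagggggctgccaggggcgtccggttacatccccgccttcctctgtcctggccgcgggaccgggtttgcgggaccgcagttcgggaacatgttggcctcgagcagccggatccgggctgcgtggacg
LAMA4, chr6:112254518-112254817, minus strand: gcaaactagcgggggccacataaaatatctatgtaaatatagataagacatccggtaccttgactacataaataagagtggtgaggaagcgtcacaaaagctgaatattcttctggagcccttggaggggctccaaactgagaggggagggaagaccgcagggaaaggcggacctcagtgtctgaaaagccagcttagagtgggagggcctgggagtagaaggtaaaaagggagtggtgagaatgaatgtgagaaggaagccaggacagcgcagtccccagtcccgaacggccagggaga
The GC box was present in 6 of the 8 promoters and in 45.0% of the 35116 promoters in the table. LAMC1 held 3 copies and NID2 held 4, with a pair of them overlapping by a base just upstream of the start site, whereas NID1 held 1 and LAMA4 none. The AP-1 site TGANTCA was found in 0 of the 8 promoters (7.71% of all), the related site TGACGTCA in 0 (1.85% of all) and the TATAAA box in 0 (11.5% of all), each searched on both strands. The letters GGAAGGAA, a repeat of the core bound by ETS factors, occurred in 1 of the 8, LAMB2 (3.67% of all). The match lay on the strand opposite to the gene, read as TTCCTTCC along the gene, 27 bases before the start site. The windows were GC-rich in LAMC1 (79.0% G or C) and less so in LAMA4 (51.3%), against a median of 58.7% over all promoters. These matches describe the letters of a 300-base window only.

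**Figure D1:**
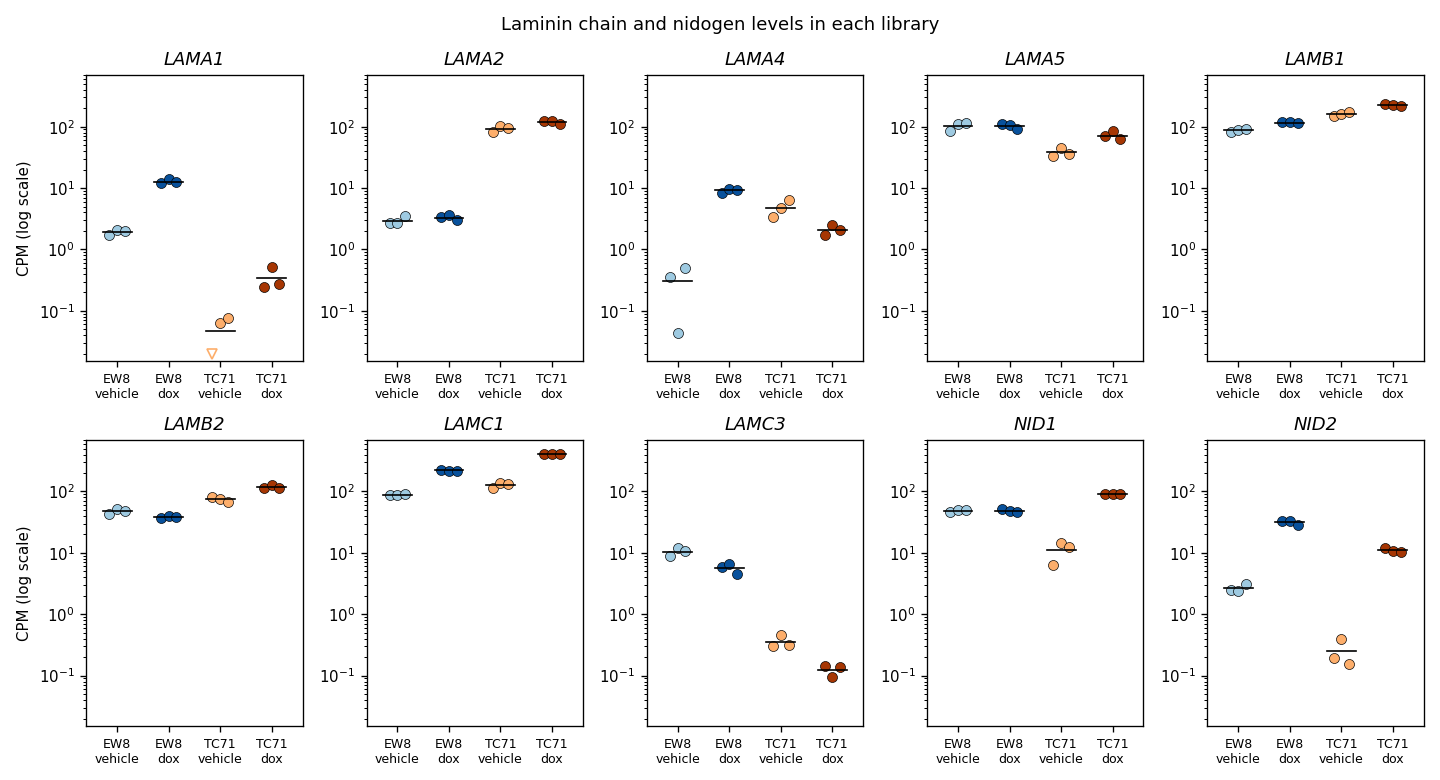
CPM on a log scale for each of the 10 genes in the 3 libraries of each group (points), with the group mean as a line and an open triangle for a library with 0 counts. NID2 and LAMC1 libraries were higher with doxycycline in both lines, NID1 was higher in TC71 and overlapped in EW8, and LAMA4 was higher in EW8 and lower in TC71.

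The first comparison asked which of these genes responded to doxycycline, with which c-Jun and c-Fos were induced, in each line. Calls required an adjusted p-value under 0.05 together with a log2 fold change beyond 1 in either direction (edgeR quasi-likelihood test), with Benjamini-Hochberg adjustment over 21013 genes. In EW8, 4 of the 10 genes were called higher (LAMA1, LAMA4, LAMC1 and NID2), against 11.4% of all genes, and 0 were called lower, against 3.38%. At an unadjusted p under 0.05, 2 genes (LAMB2 and LAMC3) were lower in EW8, and DESeq2 and limma-voom also called 0 lower. In TC71, 4 were called higher (LAMA1, LAMC1, NID1 and NID2), against 12.3% of all genes, and 2 were called lower (LAMA4 and LAMC3), against 3.67%. Without the fold limit, 5 genes were higher in EW8 (21.9% of all genes) and 2 lower (22.0%), so that 7 changed in either direction (43.9%), and in TC71 8 were higher (25.1%) and 2 lower (20.4%), so that all 10 changed (45.6%). The median log2 fold change of the 10 genes was 0.29 in EW8, where that of all genes was -0.03, and 0.79 in TC71, where that of all genes was 0.00. With the TC71 genes at the floor set to their bounds the median was 0.79 as well.

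Alpha chains gave the widest range of responses. LAMA1, the alpha chain of the embryonic basement membrane (ENSG00000101680.14, chromosome 18, 6941744 to 7117814, minus strand), was at 1.736, 2.113 and 1.975 CPM in the EW8 vehicle libraries and at 11.91, 13.79 and 12.64 CPM with doxycycline. All 3 treated libraries were far above all 3 vehicle libraries, with a log2 change of 2.72 (SE 0.25, adjusted p 4.92e-08). Within TC71 the gene was barely detected, with 0, 4 and 4 counts in the vehicle libraries and 10, 22 and 12 counts with doxycycline. The TC71 vehicle group was at the floor, so its rise to a mean of 0.3469 CPM is given as at least 3.18-fold (adjusted p 0.000254). The fitted TC71 log2 fold change of 2.78 dropped to 2.18 without TC71 vehicle replicate 1, the library with 0 counts, and stayed called (adjusted p 0.000621). Of the 15872 bp of LAMA1 exons, 1641 bp are shared with ENSG00000265069 and 113 bp with ENSG00000264475, both on the opposite strand. Reads there were counted for neither gene.

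LAMA4, the alpha chain of blood vessels and mesenchyme (ENSG00000112769.18, chromosome 6, 112108760 to 112254939, minus strand), moved in opposite directions in the lines. In EW8 vehicle libraries it was at 0.3607, 0.04357 and 0.5027 CPM, resting on 16, 2 and 28 counts, and with doxycycline at 8.319, 9.816 and 9.381 CPM. The vehicle libraries disagreed with each other, but all lay far below the treated ones. The log2 fold change was 4.87 (SE 0.39, adjusted p 8.58e-09), the highest of the 10 genes in EW8, and it became 5.54 without EW8 vehicle replicate 3 (adjusted p 5.28e-08). Within TC71 the vehicle libraries were at 3.34, 4.781 and 6.286 CPM and the doxycycline libraries at 1.745, 2.484 and 2.047 CPM. The groups again did not overlap, and LAMA4 fell in TC71 by 1.20 on the log2 scale (SE 0.31, adjusted p 0.00424). The summed endothelial markers, given above, were higher with doxycycline in both lines, while the fibroblast markers moved in both directions.

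LAMA5, the most widespread adult alpha chain (ENSG00000130702.15, chromosome 20, 62307955 to 62367312, minus strand), was at 85.51, 108.8 and 112.8 CPM in EW8 with vehicle and at 108.8, 104.7 and 93.15 CPM with doxycycline. These libraries overlapped, and the log2 fold change was -0.0023 (SE 0.12, adjusted p 0.993). In TC71, LAMA5 rose from 33.38, 44.82 and 36.44 CPM to 69.2, 83.46 and 62.31 CPM. All treated libraries lay above all vehicle libraries there, with a log2 change of 0.91 (SE 0.12, adjusted p 6.18e-06), just under the limit of 1. LAMA5 shares 244 bp of exon with ADRM1 on the opposite strand, and reads falling on both genes were not counted for either.

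LAMA2, the alpha chain of muscle and peripheral nerve, whose loss causes a congenital muscular dystrophy (ENSG00000196569.12, chromosome 6, 128883141 to 129516569, plus strand), separated the lines rather than the treatments. It was at 2.683, 2.658 and 3.447 CPM in EW8 with vehicle and at 3.345, 3.614 and 2.967 CPM with doxycycline (log2 fold change 0.17, SE 0.13, adjusted p 0.305). The EW8 libraries overlapped. In TC71 it was at 83.33, 100.8 and 94.95 CPM with vehicle and rose to 122.7, 121.6 and 111.7 CPM with doxycycline, a log2 change of 0.35 (SE 0.09, adjusted p 0.00252). That rise left the treated libraries above the vehicle libraries by a small margin compared with the distance between the lines.

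The beta chains moved little. LAMB1, the beta chain of most trimers outside muscle synapse and kidney filter (ENSG00000091136.13, chromosome 7, 107923799 to 108003255, minus strand), was at 82.94, 88.85 and 92.4 CPM in EW8 vehicle libraries and rose to 117.7, 117.5 and 114.4 CPM with doxycycline (log2 fold change 0.40, SE 0.06, adjusted p 2.79e-05). In TC71 its level rose from 149.3, 162.3 and 173.6 CPM to 233.6, 222.1 and 218.8 CPM (log2 fold change 0.47, SE 0.06, adjusted p 3.21e-06). Treated libraries were above vehicle libraries in both lines, by less than the fold limit. LAMB1 shares 70 bp of exon with DLD and 221 bp with ENSG00000273055, both on the opposite strand.

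LAMB2, the beta chain of the neuromuscular junction and the glomerular basement membrane (ENSG00000172037.13, chromosome 3, 49121114 to 49133118, minus strand), fell in EW8 and rose in TC71. In EW8 it was at 43.13, 51.28 and 47.99 CPM with vehicle and 36.8, 39.66 and 38.53 CPM with doxycycline, a log2 change of -0.31 (SE 0.08, adjusted p 0.00463). The TC71 libraries were at 82.68, 74.04 and 68.52 CPM with vehicle and 114.9, 129.2 and 113.8 CPM with doxycycline, a log2 change of 0.67 (SE 0.08, adjusted p 1.39e-06). Neither change reached the fold limit, and the groups did not overlap in either line.

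LAMC1, the gamma chain of nearly all laminins and the one that binds nidogen (ENSG00000135862.5, chromosome 1, 183023460 to 183145592, plus strand), rose in both lines from an already high level. It was at 86.09, 88.35 and 90.98 CPM in EW8 with vehicle and at 225.4, 216.1 and 219.4 CPM with doxycycline. In TC71 it was at 114.2, 136.9 and 132.3 CPM with vehicle and at 414.4, 403.6 and 403.1 CPM with doxycycline. All treated libraries were well above all vehicle libraries. The log2 fold change was 1.32 in EW8 (SE 0.06, adjusted p 3.75e-12) and 1.67 in TC71 (SE 0.06, adjusted p 1.06e-13).

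LAMC3, a gamma chain of brain, retina and some epithelia (ENSG00000050555.17, chromosome 9, 131009082 to 131094473, plus strand), went the other way. In EW8 it fell from 8.747, 12.09 and 10.59 CPM to 5.796, 6.498 and 4.61 CPM, a log2 change of -0.89 (SE 0.19, adjusted p 0.000753), short of the fold limit. The TC71 libraries were at 0.3054, 0.4507 and 0.3104 CPM with vehicle and at the floor with doxycycline (6, 4 and 6 counts), at least 2.51-fold lower (adjusted p 0.00313). The TC71 call rests on few counts and was lost in limma-voom (adjusted p 0.115) and with the TC71 libraries fitted alone (adjusted p 0.0582).

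NID1, the nidogen of most basement membranes (ENSG00000116962.14, chromosome 1, 235975830 to 236065162, minus strand), was at 46.78, 49.53 and 50 CPM in EW8 with vehicle and 51.0, 47.42 and 46.06 CPM with doxycycline. The EW8 groups overlapped (log2 fold change -0.02, SE 0.16, adjusted p 0.948). In TC71 its level rose from 6.413, 14.62 and 12.53 CPM to 91.61, 91.06 and 90.19 CPM, a log2 change of 3.02 (SE 0.18, adjusted p 9.48e-11). All 3 treated TC71 libraries were nearly equal, and the lowest vehicle value came from replicate 1, without which the log2 fold change was 2.66.

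NID2, its close relative with a narrower distribution (ENSG00000087303.17, chromosome 14, 52004803 to 52069228, minus strand), rose in both lines. In EW8 it was at 2.457, 2.418 and 3.124 CPM with vehicle and at 33.49, 33.12 and 28.26 CPM with doxycycline, a log2 change of 3.56 (SE 0.17, adjusted p 5.91e-12). The TC71 libraries were at 0.1908, 0.4024 and 0.1552 CPM with vehicle and at 12.16, 10.63 and 10.32 CPM with doxycycline, a log2 change of 5.41 (SE 0.23, adjusted p 6.7e-13). Treated and vehicle libraries were far apart in both lines, and NID2 had the highest log2 fold change of the 10 genes in TC71. The TC71 vehicle values rest on few counts (10, 25 and 8), and the TC71 log2 fold change was 5.12 to 5.97 with a library left out. RTRAF on the opposite strand shares 1915 of the 6392 bp of NID2 exons (30.0%), where reads were counted for neither gene.

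**Figure D2:**
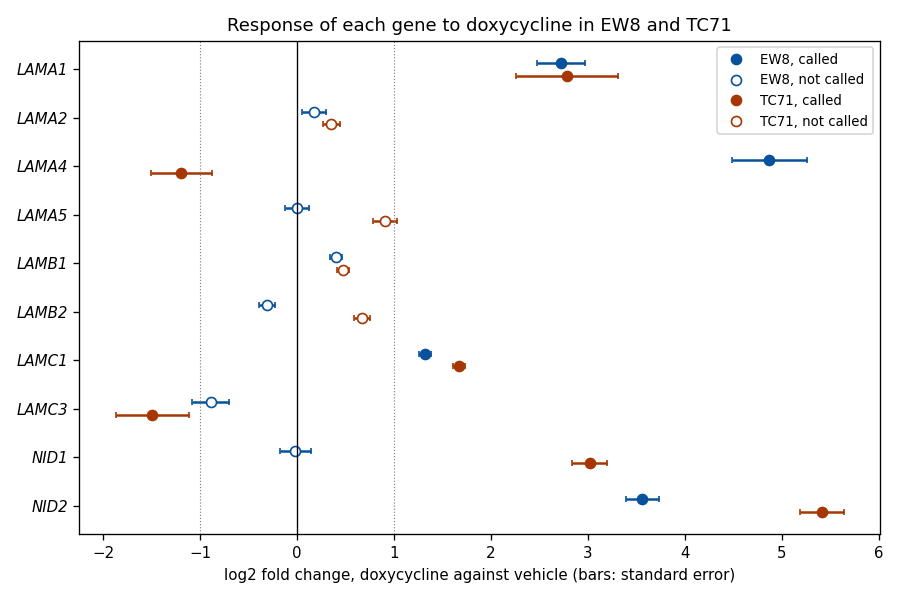
Log2 fold change of doxycycline against vehicle for each gene in EW8 (blue) and TC71 (brown), with standard errors as bars, filled points for called genes and dotted lines at -1 and 1. LAMA1, LAMC1 and NID2 were called higher in both lines, and LAMA4 lay at 4.87 in EW8 and -1.20 in TC71.

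The second comparison asked whether the response differed between the lines, as the TC71 minus the EW8 log2 fold change at an adjusted p under 0.05. It did so for 6 of the 10 genes, against 19.3% of all genes, with 5 larger in TC71, against 12.2% of all genes, and 1 larger in EW8, against 7.07%. LAMA4 differed most, by -6.07 (SE 0.50, adjusted p 8.69e-08), and by -6.80 without EW8 vehicle replicate 3 (adjusted p 2.24e-07). The nidogens both responded more in TC71, NID1 by 3.04 (SE 0.24, adjusted p 4.53e-08) and NID2 by 1.85 (SE 0.30, adjusted p 0.000214). The NID2 difference was 1.52 to 2.41 with a library left out. LAMA5 differed by 0.91 (SE 0.17, adjusted p 0.000818) and LAMB2 by 0.98 (SE 0.11, adjusted p 5.42e-06). LAMC1 differed by 0.36 (SE 0.09, adjusted p 0.00609), which no longer passed without TC71 vehicle replicate 1 (0.15, adjusted p 0.0938), without EW8 vehicle replicate 3 (0.24, adjusted p 0.139), or without any of the 3 EW8 doxycycline replicates (0.24 to 0.26, adjusted p 0.118 to 0.169). For LAMA1 (0.07, adjusted p 0.948), LAMA2 (0.18, adjusted p 0.48), LAMB1 (0.07, adjusted p 0.653) and LAMC3 (-0.60, adjusted p 0.382) a difference was not shown. JUN and FOS themselves were induced more in TC71, by 0.73 and 2.21 on the log2 scale, and their part in these differences was not tested.

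The third comparison set the lines side by side under vehicle, with the same vehicle libraries that serve as controls above. All 10 genes differed at an adjusted p under 0.05, against 61.7% of all genes, with 5 higher in TC71 (28.2%) and 5 lower (33.5%). With the fold limit, 2 were called higher in TC71 (LAMA2 and LAMA4), against 11.6% of all genes, and 5 were called lower (LAMA1, LAMA5, LAMC3, NID1 and NID2), against 18.9%. LAMA2 was higher in TC71 by a log2 of 4.98 (SE 0.11, adjusted p 1.09e-16) and LAMA4 by 3.94 (SE 0.39, adjusted p 6.43e-08), or 4.605 without EW8 vehicle replicate 3. LAMA1 was at least 17.8-fold lower in TC71 than in EW8 (adjusted p 2.69e-09), and its fitted difference of -5.26 became -4.63 without TC71 vehicle replicate 1. LAMC3 was lower in TC71 by a log2 of -4.86 (SE 0.24), NID2 by -3.37 (SE 0.25), NID1 by -2.12 (SE 0.18) and LAMA5 by -1.42 (SE 0.12). LAMB1 (0.88), LAMB2 (0.66) and LAMC1 (0.53) were higher in TC71 by less than the fold limit.

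Levels were then compared between genes per exon length, as RPKM (CPM divided by exon length in kilobases). In EW8 vehicle cells the order ran LAMB1 (10.82 ± 0.587 RPKM, SD, n = 3), LAMC1 (10.53), NID1 (8.317), LAMA5 (7.163), LAMB2 (6.914), LAMC3 (1.38), NID2 (0.4172), LAMA2 (0.2828), LAMA1 (0.1223) and LAMA4 (0.02612). The library ranges of LAMB1 and LAMC1 overlapped, as did those of LAMA5 and LAMB2, and all other neighbours were apart. With doxycycline LAMC1 led at 26.21 ± 0.558 RPKM, NID2 moved up to the sixth place at 4.947 RPKM, and LAMA2 came last at 0.3195 RPKM. LAMA1 (0.8053), LAMA4 (0.7924) and LAMC3 (0.742) overlapped in that group.

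In TC71 vehicle cells the order ran LAMB1 (19.87 ± 1.49 RPKM), LAMC1 (15.2), LAMB2 (10.94), LAMA2 (8.982), LAMA5 (2.674), NID1 (1.908), LAMA4 (0.4149), LAMC3 (0.04681), NID2 (0.03903) and LAMA1 (0.002982). LAMA5 overlapped NID1, and LAMC3 overlapped NID2. With doxycycline LAMC1 again led, at 48.42 ± 0.756 RPKM, followed by LAMB1 (27.62), LAMB2 (17.38), NID1 (15.51), LAMA2 (11.46), LAMA5 (5.014) and NID2 (1.727). LAMA4 (0.1807), LAMA1 (0.02186) and LAMC3 (0.01656) were lowest, and the ranges of LAMA1 and LAMC3 overlapped.

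Because each trimer takes an alpha, a beta and a gamma chain, shares of the summed RPKM within each chain class were also computed, with LAMA3 included among the alpha chains, LAMB3 and LAMB4 among the beta chains, and LAMC1 and LAMC3 as the gamma chains. They describe transcripts and not proteins. LAMA5 made up 86.8% ± 1.53 of the alpha chain sum in EW8 vehicle cells and 67.2% ± 1.17 with doxycycline (SD, n = 3). Over the same groups LAMA3 went from 7.93% to 14.7%, LAMA1 from 1.49% to 7.59% and LAMA4 from 0.323% to 7.48%. In TC71 LAMA2 made up 72.7% ± 0.84 with vehicle and 64.7% ± 2.33 with doxycycline, LAMA5 21.6% and 28.2%, and LAMA3 2.36% and 6.01%. Hence LAMA5 led the alpha chains in EW8 and LAMA2 in TC71, with and without doxycycline.

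LAMC1 made up 88.4% ± 1.53 of the sum of LAMC1 and LAMC3 in EW8 vehicle cells and 97.2% ± 0.474 with doxycycline. LAMC3 made up the rest, 11.6% and 2.75% in EW8, and 0.306% with vehicle and 0.0342% with doxycycline in TC71. LAMC1 was thus the more abundant of the pair in all 4 groups. Among beta chains LAMB1 went from 33.1% to 20.3% in EW8 and from 63.9% to 43.1% in TC71, and LAMB2 from 21.1% to 7.9% and from 35.2% to 27.1%. LAMB3 took the rest of the beta chain sum, save for LAMB4 at a mean of at most 0.0489%.

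The alpha chain sum became smaller relative to the sum of LAMC1 and LAMC3. Their ratio was 0.691 ± 0.0639 with vehicle and 0.395 ± 0.0224 with doxycycline in EW8, and 0.81 ± 0.0185 and 0.366 ± 0.0259 in TC71. Library ranges did not overlap between vehicle and doxycycline in either line. The ratio of the beta chain sum to the same sum was 2.75 ± 0.0399 with vehicle and 2.62 ± 0.122 with doxycycline in EW8, where the ranges overlapped, and 2.05 ± 0.179 and 1.32 ± 0.0551 in TC71, where they did not. Of the nidogen sum, NID2 made up 4.77% ± 0.586 with vehicle and 37.6% ± 1.52 with doxycycline in EW8, and 2.08% ± 0.836 and 10.0% ± 0.738 in TC71.

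**Figure D3:**
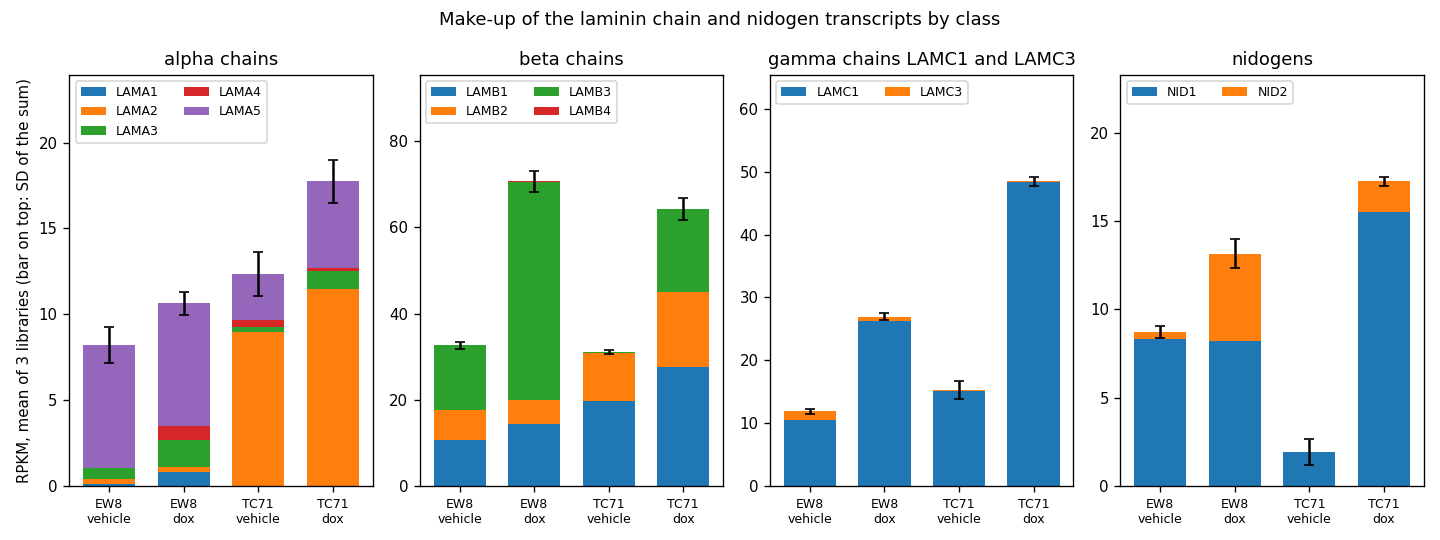
Stacked mean RPKM (n = 3 libraries) of the alpha and beta laminin chains, of LAMC1 with LAMC3, and of the nidogens in the 4 groups, with the SD of each sum as a bar on top. LAMC1 makes up 88.4% or more of the mean sum of LAMC1 and LAMC3, the alpha sum is mainly LAMA5 in EW8 and LAMA2 in TC71, and the nidogen sum in TC71 rises from 1.947 to 17.24 RPKM.

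Other genes of the laminin network were described with the same fit, by counts over lists. Over all genes, 11.4% were called higher and 3.38% lower in EW8, and 12.3% and 3.67% in TC71. The median log2 fold change of all genes was -0.03 in EW8 and 0.00 in TC71. Of LAMA3, LAMB3 and LAMB4, 3 were called higher in EW8 and 2 in TC71 (median log2 fold change 1.76 and 1.88, or 1.28 in EW8 with LAMB4, whose vehicle group was at the floor, set to its bound). LAMB3 rose by 1.76 in EW8 and 6.22 in TC71, and LAMA3 by 1.28 and 1.88. LAMB4 was at least 1.94-fold higher in EW8. Of 11 laminin receptors, 5 were called higher and 1 lower in EW8 and 6 higher and 1 lower in TC71, with medians of 0.61 and 1.55. SDC1, the syndecan of epithelia and plasma cells, rose by 2.51 in EW8 and 5.997 in TC71, and ITGA3, the integrin alpha chain that binds laminins with LAMA3 or LAMA5, by 4.11 and 5.60. ITGA6, another integrin alpha chain of laminin receptors, rose by 4.15 and 4.48. The other EW8 calls, named after their values were seen, were SDC4 (3.95) and ITGA7 (1.32), which were higher, and BCAM, a receptor for LAMA5 trimers, which was lower in both lines (-1.16 and -1.43).

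Of 17 basement membrane partners, 16 were tested, with 2 called higher and 1 lower in EW8 and 6 higher and 1 lower in TC71 (medians -0.05 and 0.50). The shares over all genes were 11.4% higher and 3.38% lower in EW8, and 12.3% and 3.67% in TC71 (medians -0.03 and 0.00). The 2 of 16 called higher in EW8 were thus near the share over all genes. COL4A6, a collagen IV chain, was at the floor in EW8 vehicle cells and at least 30.9-fold higher with doxycycline, and rose by a log2 of 3.68 in TC71. COL4A2, a chain of the main collagen IV network, had 0 counts in TC71 vehicle cells and was at least 6.17-fold higher with doxycycline, and rose by 0.80 in EW8, under the fold limit. COL15A1, a collagen at the outer face of basement membranes, had 0 counts in EW8 vehicle cells and was at least 3.33-fold higher with doxycycline. In TC71 the mean of COL15A1 was 0.2165 CPM without and 0.238 CPM with doxycycline (log2 fold change 0.11, adjusted p 0.93), and its response differed between the lines (adjusted p 0.00333). SMOC2, named after its values were seen, was the gene called lower, at least 3.43-fold in EW8 and by -2.26 on the log2 scale in TC71, and COL4A1, among the 6 called higher in TC71, was at the floor in both TC71 groups. Others of the 6 stayed low with doxycycline, with means of 0.6738 CPM for COL4A2, 0.5705 CPM for COL4A3 and 1.424 CPM for COL4A4. HSPG2, also among the 6 and named after its values were seen, rose from 14.05 to 56.82 CPM in TC71 (log2 fold change 2.01). Of 12 enzymes that build the laminin-binding glycan of dystroglycan, 0 were called higher and 1 lower in EW8, where 4 were higher and 4 lower without the fold limit, and 0 were called in either direction in TC71, where 7 were higher and 2 lower without it (medians -0.12 and 0.41). Without the fold limit, 21.9% of all genes were higher and 22.0% lower in EW8, and 25.1% and 20.4% in TC71. The EW8 call among the enzymes was POMK, the mannose kinase of the pathway (log2 fold change -1.19, SE 0.14).

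**Figure D4:**
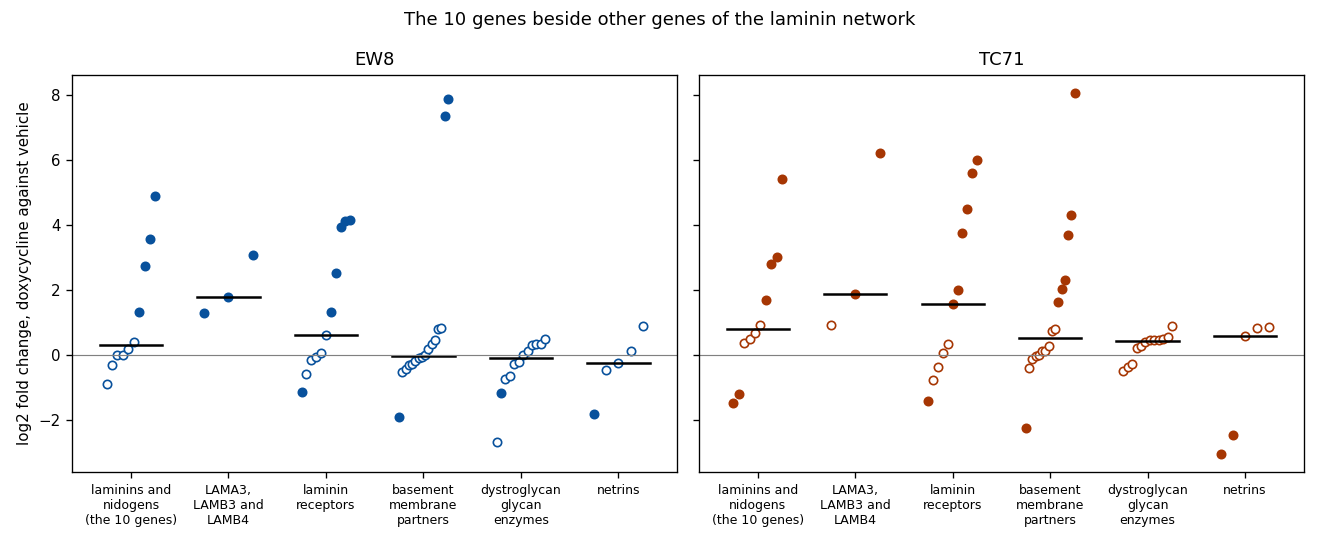
Log2 fold change of doxycycline against vehicle for each tested gene in EW8 and TC71, grouped as the 10 laminin and nidogen genes and the lists of related genes, with filled points for called genes and a line at each list's median. The median of the 10 genes is 0.29 in EW8 and 0.79 in TC71, and that of the receptors 0.61 and 1.55.

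The genes whose log2 CPM most resembled that of each member over the 12 libraries were found by Pearson correlation over 14928 genes. The 12 libraries fall into 4 groups, so any gene with a like pattern of group means scores high, and the values are a description. LAMC1 was most like KIAA1217 (r = 0.998) and MYL6 (r = 0.997), NID2 most like LINC01630 (r = 0.995) and MCUB (r = 0.995), and NID1 most like HMOX1 (r = 0.984) and TIMP2 (r = 0.972). LAMA4 was most like USP18 (r = 0.954) and USP41 (r = 0.950), a pair of near-identical genes whose reads cannot be fully told apart, and LAMA1 most like DHX58 (r = 0.997).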

How the data were processed

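Gene-level RNA-seq counts from 12 libraries were used. The authors aligned reads from stranded poly(A) libraries with STAR to GRCh38 and counted them per gene with featureCounts 2.0.1 on GENCODE release 29, and the deposited values are whole-number counts, not normalized. Per the file headers strand and pairing were not used, and reads on several genes were left out, so overlapping genes on opposite strands are uncertain. Of 58721 genes, 99.1% had a symbol, and 0 columns of sample values were unused. Genes were filtered with filterByExpr (21013 kept, 99.95% of counts), scaled by TMM and tested with edgeR 4.0.16 (R 4.3.3, quasi-likelihood test, 4 groups in 1 fit, common dispersion 0.0143), with Benjamini-Hochberg adjustment. DESeq2 1.42.0, the tool of the study, and limma 3.58.1 (voom) were alternatives, with other scalings, filters, halved counts, each line alone, the replicate number as a block and each library left out. The SE is the log2 fold change divided by the root of the F statistic. CPM use TMM sizes and RPKM the exon length of the table. Errors are SD over 3 libraries, and floors and depth cover counting error only. In each list the 2 genes with the largest absolute log2 fold change among those called in either line, and up to 3, were named, and for each gene at a mean of 1 CPM or more the 2 most alike by Pearson correlation were found. The genes and lists were chosen with earlier results of these data known. Some items of these lists are not reported here.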

Additional observations from a re-analysis of the deposited data

Results flagged for a closer look

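The 6 genes below were set apart because their response to doxycycline differed between the lines in the edgeR quasi-likelihood test of the difference itself (log2 fold change in TC71 minus that in EW8, 3 libraries per group). The difference was -6.07 for LAMA4, whose 3 treated libraries lay above all vehicle libraries in EW8 and below all of them in TC71. It was 3.04 for NID1, 1.85 for NID2, 0.98 for LAMB2, 0.91 for LAMA5 and 0.36 for LAMC1. Treated libraries of NID2 and LAMC1 lay above the vehicle libraries in both lines, those of NID1 and LAMA5 did so in TC71 and overlapped in EW8, and those of LAMB2 lay below in EW8 and above in TC71. LAMC1 is the weakest of the 6, since its difference lost its call when single libraries were left out. Under vehicle, the levels of the 6 genes also differed between the lines, and the part of the starting level in the difference of the response was not tested.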

How the results depend on the processing

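Each result was recomputed under the alternatives, changing one choice at a time. Of the values for single genes, 814 kept their direction and side of the threshold, 13 passed it newly, 9 no longer passed it and 38 changed sign. Of the counts and orders, 148 stayed within 1.5 times or within their spread and 17 did not. Asking for at least 10 counts in every library left 6 of the 10 genes, of which 1 was called higher in EW8, 2 were higher and 0 lower in TC71, 3 differed in response, and 1 was higher and 2 were lower in TC71 under vehicle; fewer genes were tested by construction. Without the fold limit 2 were lower in EW8, 8 higher in TC71 and 5 higher in TC71 under vehicle. In limma-voom and with TC71 fitted alone, 1 was lower in TC71. Leaving out a library gave 0 to 1 lower in EW8 (LAMC3, at -1.01 without EW8 vehicle replicate 1), 4 to 5 higher in TC71 (LAMA5, at 1.04 without TC71 vehicle replicate 2), 2 to 3 higher in TC71 under vehicle, and 5 to 6 differing responses. By CPM without length, 5 of 10 genes kept their place in EW8 vehicle cells. With exon bases shared with RTRAF left out of its length, a choice made after seeing the data, NID2 made up 6.67% and 46.2% of the nidogen sum in EW8 and 2.94% and 13.7% in TC71.

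The values that changed sign were not called, before or after the change. LAMA5 in EW8 was at 0.0074 with median-ratio size factors, 0.0619 with 10 counts in every library, 0.0075 in DESeq2, 0.0037 in limma-voom, 0.0028 with the replicate block, 0.0468 with halved counts, 0.0449 with its line alone, and -0.12 to 0.11 with a library left out. NID1 in EW8 was at 0.0459, 0.0314 and 0.0292 with 10 counts in every library, halved counts and its line alone, and -0.0477 to 0.0558 with a library left out. The difference between responses was -0.0069 with upper-quartile scaling and -0.0805 with halved counts for LAMA1 (-0.58 to 0.42 with a library left out), -0.0062, -0.0364 and -0.0302 with upper-quartile scaling, 10 counts in every library and halved counts for LAMB1 (-0.11 to 0.11), and -0.0565 to 0.25 with a library left out for LAMA2. The causes were not tested. LAMC1 lost the call of its differing response with 10 counts in every library (adjusted p 0.0505) and with halved counts (adjusted p 0.0516). Upper-quartile scaling moved the median of all genes in TC71 by -0.119. Replicate numbers did not pair the samples (correlation of deviations -0.028 to 0.018), and the block changed no call of the 10 genes.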

Other observations

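The netrins share the laminin fold at their amino end. Of 6 netrin genes 5 were tested, with 0 called higher in either line (those with an unadjusted p under 0.05 were the genes given below without the fold limit), 1 called lower in EW8 (NTN3) and 2 called lower in TC71 (NTN3 and NTNG2) by the edgeR quasi-likelihood test. Over all genes, 11.4% were called higher and 3.38% lower in EW8, and 12.3% and 3.67% in TC71. With no fold limit, 21.9% of all genes were higher in EW8 and 25.1% in TC71. Without the fold limit NTNG1 was higher in EW8 (log2 fold change 0.87), and NTN1 (0.57), NTN4 (0.83) and NTNG1 (0.86) were higher in TC71. NTN3 went from a mean of 1.722 to 0.4759 CPM in EW8 (log2 fold change -1.83, adjusted p 0.00185) and from 4.3 to 0.5131 CPM in TC71 (-3.06, adjusted p 1.06e-05). NTNG2, a membrane-anchored netrin of neurons, went from 1.051 to 0.1902 CPM in TC71 (-2.46, adjusted p 7.72e-05) and from 1.388 to 1.001 CPM in EW8 (-0.47, adjusted p 0.306), and these responses differed (-1.98, adjusted p 0.0145).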
